A study of Mus musculus with 16 samples.

Results

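The transcription factor p53 and 9 genes of its response were followed through RNA-seq libraries of mouse embryos, wild type (WT) or without miR-302 (KO). The members are Trp53, which encodes p53, together with Mdm2, Trp53inp1, Cdkn1a, Ccng1, Btg2, Plk2, Eda2r, Phlda3 and Sesn2, 10 of the 24421 genes in the deposited tables. They were named by hand with earlier results of these data in view, in particular values of KO against WT at embryonic day 8.5 (E8.5), so the E8.5 values below are a description with no test. The study took C57BL/6 embryos of 3 stages (E7.5, E8.5, E9.5). Its title sets the question in the development of the neural crest, the migratory cells that leave the dorsal neural tube. At E7.5 the RNA came from whole embryos (2 WT and 2 KO libraries). At E8.5 it came from flow-sorted cells positive for Wnt1-Cre, a driver active in the dorsal neural tube and the crest (3 WT and 4 KO libraries), and at E9.5 from sorted Sox10-positive cells (2 WT and 2 KO libraries). Both genotypes of a stage were collected by the same gate. The labels give neither the allele of the miR-302 deletion nor the number of embryos behind a library, nor do they say that replicates came from separate litters, so p-values measure the spread between these libraries only. A further E8.5 KO sample (KO4_5s) was not analysed here.

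In a resting cell p53 is made continuously and destroyed almost as fast, because Mdm2, itself switched on by p53, tags it for degradation. DNA damage, imbalance in ribosome assembly or nutrient stress frees p53 from Mdm2, so p53 activity is set mainly at the protein and is read from its target genes rather than from Trp53 messenger RNA. In the embryo the neural crest and the epiblast are known for their sensitivity to excess p53. The miR-302 cluster is a group of microRNAs of pluripotent cells and the early embryo that represses messenger RNAs carrying a match to its seed in the 3′ untranslated region.

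2 members, Cdkn1a and Ccng1, carried a match to the p53 site near an annotated start site, and these windows are shown because both genes are direct targets whose levels are followed below. The RefSeq windows (GRCm38.p6) run from 250 bases before to 50 bases after a start site, 300 bases in all, and 9 of the 10 members had one, with Trp53inp1 not in the table. Each was searched on both strands for the p53 half-site, a motif of 10 letters, and for 2 half-sites joined without a spacer with at most 1 mismatch over the 20 letters. The joined match is shown in capitals.
Cdkn1a, chr17:29090729-29091028, plus strand: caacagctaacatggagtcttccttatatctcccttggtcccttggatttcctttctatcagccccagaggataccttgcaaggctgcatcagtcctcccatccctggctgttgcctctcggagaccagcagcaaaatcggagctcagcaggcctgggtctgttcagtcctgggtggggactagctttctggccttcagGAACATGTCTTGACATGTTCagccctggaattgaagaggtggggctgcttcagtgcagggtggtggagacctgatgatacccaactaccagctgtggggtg
Ccng1, chr11:40755237-40755536, minus strand: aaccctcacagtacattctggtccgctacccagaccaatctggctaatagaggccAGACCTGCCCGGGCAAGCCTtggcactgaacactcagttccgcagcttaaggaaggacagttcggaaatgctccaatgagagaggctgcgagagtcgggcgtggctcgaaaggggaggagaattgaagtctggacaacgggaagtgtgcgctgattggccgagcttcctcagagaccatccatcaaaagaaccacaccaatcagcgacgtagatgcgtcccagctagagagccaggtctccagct
The Cdkn1a match lay 51 to 32 bases before the start site of the upstream Cdkn1a window, and the Ccng1 match lay 195 to 176 bases before its start site. The upstream Cdkn1a window also held an exact half-site outside the match, beginning 73 bases before the start site and left in small letters. A second Cdkn1a window, chr17:29093519-29093818, held neither motif. The windows of Mdm2 (chr10:117710709-117711008, minus strand) and Trp53 (chr11:69580109-69580408, plus strand) each held a single exact half-site. A joined site with at most 1 mismatch was present in 0.107% of 27025 genes with a window and an exact half-site in 9.55%. These matches are letters in a window and are not evidence of binding, and windows without a match may have sites elsewhere.

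The 3′ untranslated regions were searched for the complement of the miR-302 seed, since loss of miR-302 is the difference between the genotypes. The mature strands below have the seed, bases 2 to 8, in capitals, and the first and second share a seed.
mmu-miR-302b-3p: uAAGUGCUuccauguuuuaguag
mmu-miR-302d-3p: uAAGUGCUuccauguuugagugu
mmu-miR-302c-3p: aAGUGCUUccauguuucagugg
A match to the first seed (AGCACTT) or its 8-letter form (AGCACTTA), or the 7-letter form GCACTTA, was found in 4 of the 10 members and in 17.7% of 21007 genes with an annotated untranslated region (GENCODE M21, GRCm38). Cdkn1a had 2 such sites, one of them with the 8 letters, a form that 2.96% of genes carried. Ccng1, Sesn2 and Trp53inp1 had 1 each. The matched letters are in capitals.
Cdkn1a, chr17:29099815-29099840: ctcagacctgaatAGCACTTtggaaa
Cdkn1a, chr17:29100487-29100512: ccgtgggtgtcaaAGCACTTAgtggg
Ccng1, chr11:40750547-40750572, minus strand: tagttactgaaatAGCACTTctttaa
Sesn2, chr4:132492440-132492465, minus strand: gccaccaccgacaAGCACTTtgcaga
Trp53inp1, chr4:11174213-11174238: gaatgaacagcacAGCACTTtgccaa
The other six members (Trp53, Mdm2, Btg2, Plk2, Eda2r and Phlda3) held none of these letters in the regions searched.

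Depth was 4912827 to 9184436 reads per library at E7.5, 9008784 to 13517860 at E8.5 and 7300598 to 14861728 at E9.5, so a gene with 0 reads in 1 library may still be present at up to 0.202 to 0.611 RPM (reads scaled to library size), counting error only. At E7.5 the 4 miR-302 precursors held 14 and 25 reads in the WT libraries and 0 in both KO libraries. The later stages held 1 read in the E8.5 WT libraries together, 1 in the E9.5 WT libraries together and 0 in KO, which does not check their labels. Replicate libraries differed by more than sampling noise in every pair (chi-square per gene 9.26 to 106). Sox10 stood at 662 to 1017 in the E8.5 libraries and at 511 to 1165 in the E9.5 libraries, against 0.703 to 4.81 at E7.5, and Wnt1 stood at 313 to 1094 at E8.5. Values are the deposited normalised read counts (gene counts divided by 1 factor per library) unless another scale is named. Fold changes are KO over WT from a fit on log2(value + 1), which understates the change of low genes. A gene was tested where its mean over the libraries of the stage reached 10 and called where its adjusted p in limma, with Benjamini-Hochberg adjustment over all genes tested, was below 0.05.

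By means over the libraries of both genotypes, Trp53 was the most abundant member at every stage and Eda2r the least. On the RPKM scale, a level set per length of the longest coding transcript and per library size, Trp53 averaged 64.5 ± 19.4 (SD, n = 4) at E7.5, 115 ± 31.6 (n = 7) at E8.5 and 123 ± 16.2 (n = 4) at E9.5 over the libraries of both genotypes. By these pooled means its main inhibitor Mdm2 came next in each stage, at 25.4 ± 5.79, 14.5 ± 3.39 and 14.3 ± 11.0. Ccng1 followed at 20.7 ± 2.73 at E7.5 and 10.4 ± 6.45 at E8.5, and its spread overlapped that of Mdm2 at both. The place of Mdm2 did not hold in every library. Ccng1 exceeded Mdm2 in E7.5 KO1 (23.5 against 22.1), E8.5 KO3 (20.7 against 19.6) and E8.5 KO4 (14.1 against 13.7). Phlda3 exceeded Mdm2 in both E9.5 KO libraries (10.49 against 7.34 in KO1 and 6.32 against 2.66 in KO2). In E9.5 KO2 so did Ccng1 (3.81), Cdkn1a (3.41), Btg2 (3.31) and Plk2 (2.82). The middle of the order was not separated by the spread over libraries. At E7.5 Phlda3 (13.2 ± 9.15), Sesn2 (8.73 ± 3.31), Cdkn1a (6.89 ± 3.43) and Btg2 (6.79 ± 0.903) overlapped, and at E8.5 Cdkn1a (6.42 ± 3.47), Phlda3 (5.22 ± 2.92), Sesn2 (4.98 ± 1.95), Btg2 (4.50 ± 1.37) and Plk2 (3.57 ± 2.06) did so. At E9.5 Plk2 (11.8 ± 9.17) stood behind Mdm2, with Phlda3 (8.43 ± 1.89), Ccng1 (7.71 ± 4.52), Sesn2 (4.68 ± 3.46), Btg2 (3.24 ± 1.19) and Cdkn1a (2.18 ± 0.853) below it and not separated from their neighbours. Trp53inp1 lay lower at 2.18 ± 0.932, 0.529 ± 0.228 and 0.614 ± 0.486 in stage order, though not below Plk2 at E7.5 (1.99 ± 0.626). Eda2r averaged 0.163 ± 0.109, 0.419 ± 0.235 and 0.275 ± 0.325. It was not the lowest in every library, since it exceeded Trp53inp1 in each E8.5 KO library (KO means 0.585 against 0.480). The stages differ in tissue and were normalised apart, so no test was made between them.

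**Figure D1:**
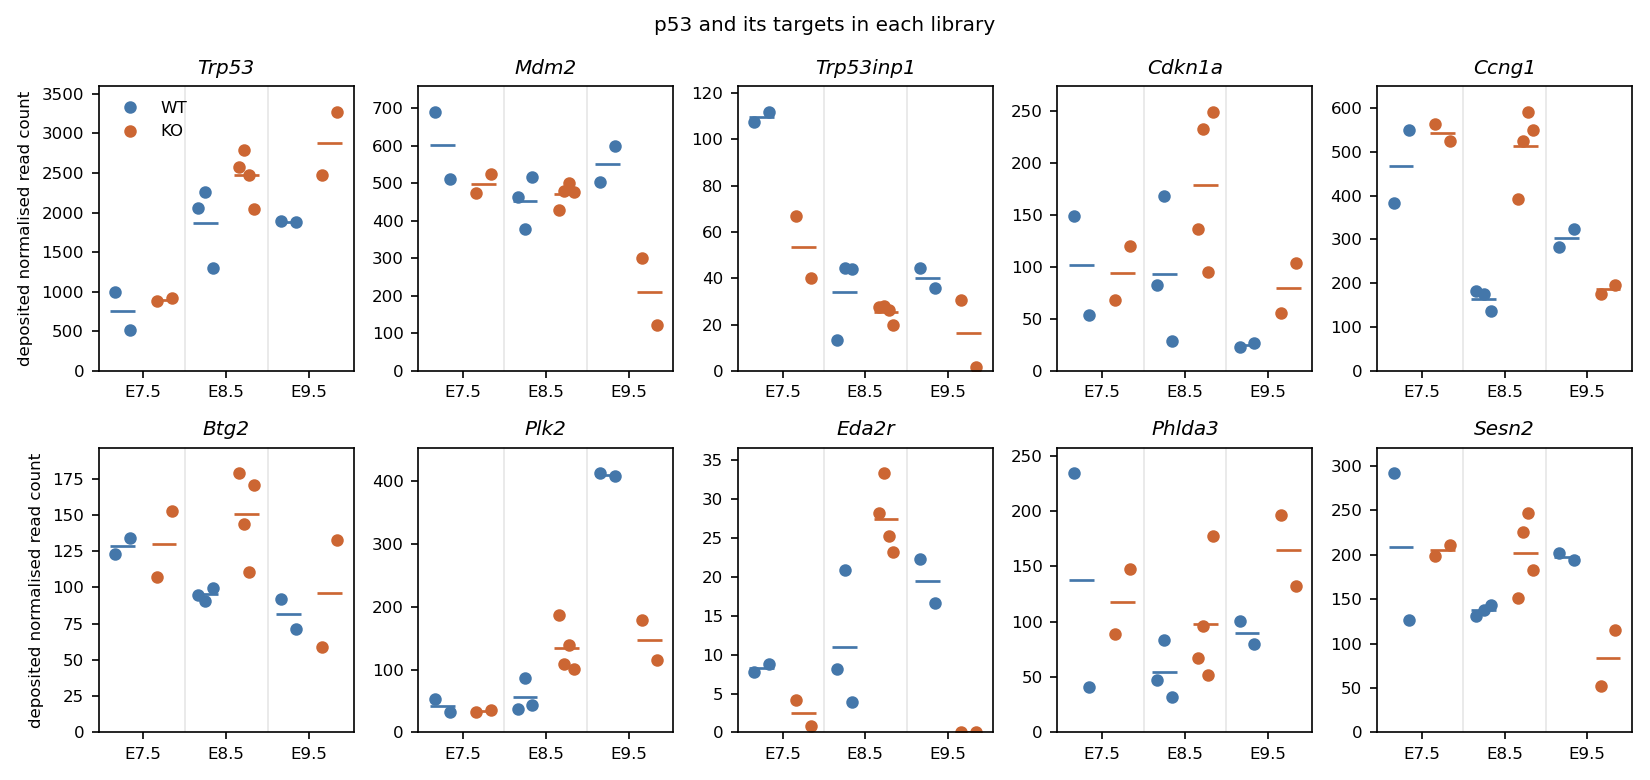
Deposited normalised read count (linear axis from 0, a separate scale for each gene) of the 10 members in each of the 15 libraries, WT in blue and KO in orange, with a bar at each group mean. At E8.5 the KO points of Ccng1 (393 to 591) all lie above the WT points (137 to 182), and at E9.5 they lie below them.

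At E8.5, in the Wnt1-Cre cells, 9 of the 10 members had a higher mean log2 level in KO than in WT, with a median log2 fold change of 0.71 against -0.03 over the 12257 genes tested. Ccng1, which encodes cyclin G1, a target that recruits a phosphatase to Mdm2, stood furthest apart. The kinase Plk2, the receptor Eda2r, the anti-proliferative gene Btg2 and the stress sensor Sesn2 were the others whose KO libraries all lay above every WT library. These 5 of 10 compare with 3.71% of all tested genes without overlap and higher in KO, and 2.82% lower, but the members were chosen from this contrast and nothing is read from the comparison. No gene was called at this stage by limma (0% of 12257, with 742 at an unadjusted p below 0.05) or by edgeR, while DESeq2 called 28.

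Among the cell cycle genes, Ccng1 (chromosome 11, 40748552 to 40755311, minus strand) was at 182, 174 and 137 in WT1_5s, WT2 and WT3 against 393, 524, 591 and 549 in KO1 to KO4. Every KO library lay well above every WT library, and the log2 fold change was 1.63 (SE 0.22), or 3.10-fold. Cdkn1a (chromosome 17, 29090976 to 29100727, plus strand), which encodes the cyclin-dependent kinase inhibitor p21, was at 82.6, 168 and 28.4 in WT against 136, 233, 95.6 and 249 in KO. Its groups overlapped, since WT2 exceeded KO1 and KO3, and its log2 fold change of 1.16 (SE 0.55) moved to 0.49 without WT3 and to 1.75 without WT2. Btg2 (chromosome 1, 134075170 to 134079120, minus strand) was at 94.8, 90.9 and 99.7 in WT, a narrow range, and at 179, 144, 111 and 170.4 in KO, a log2 fold change of 0.64 (SE 0.25). Plk2 (chromosome 13, 110395046 to 110400844, plus strand), a Polo-like kinase of the S-phase checkpoint, was at 37.9, 87.2 and 44.0 in WT against 186.5, 109, 139 and 101 in KO. Its KO libraries lay above WT2, the highest WT library, by a small margin in KO4, and the log2 fold change was 1.29 (SE 0.36).

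Of the death and signalling genes, Eda2r was the lowest in level. Eda2r (X chromosome, 97333840 to 97377216, minus strand), a receptor of the tumour necrosis factor family, was at 8.13, 20.9 and 3.91 in WT against 28.2, 33.3, 25.3 and 23.2 in KO, and these rest on 27 WT reads and 130 KO reads. The log2 fold change was 1.51 (SE 0.52), and it moved to 0.999 without WT3 and to 2.08 without WT2. Phlda3 (chromosome 1, 135766119 to 135769136, plus strand), which inhibits the kinase Akt at the membrane, was at 47.4, 83.5 and 32.3 in WT against 67.4, 95.8, 52.3 and 177 in KO. Its groups overlapped and KO4 stood alone at the top, with a log2 fold change of 0.79 (SE 0.46). Sesn2 (chromosome 4, 132492032 to 132510501, minus strand), a leucine sensor that restrains the mTORC1 kinase, was at 131, 138 and 144 in WT against 151, 226, 247 and 183 in KO. KO1 exceeded the highest WT library only slightly, and the log2 fold change was 0.52 (SE 0.24).

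The regulators within the circuit differed less. Trp53 (chromosome 11, 69580359 to 69591873, plus strand) was at 2062, 2258 and 1298 in WT against 2576, 2787, 2475 and 2052 in KO, a log2 fold change of 0.43 (SE 0.24). KO4 lay below both WT1_5s and WT2, so the groups overlapped. Mdm2 (chromosome 10, 117688875 to 117710758, minus strand), the ubiquitin ligase of p53, was at 463, 379.7 and 518 in WT against 429, 481, 502 and 478 in KO. The KO values lay within the WT range, with a log2 fold change of 0.07 (SE 0.19). Trp53inp1 (chromosome 4, 11156431 to 11174379, plus strand), whose protein enhances p53 activity and links it to autophagy, was at 13.5, 44.2 and 44.0 in WT against 27.4, 28.1, 26.5 and 19.7 in KO. It was the only member of the 10 with a negative log2 fold change at this stage, -0.24 (SE 0.46), and WT1_5s alone lay below the KO libraries. The 4 members with a miR-302 seed match, Ccng1, Cdkn1a, Sesn2 and Trp53inp1, ranged from -0.24 to 1.63, and the other six from 0.07 to 1.51.

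The sample descriptions carry a code number whose meaning is not given, and code 169 is the only one at E8.5 with a library of both genotypes in the table. Within it, KO4 exceeded WT2 in 8 of 10 members with a median log2 difference of 0.37. Ccng1 differed by 1.65, Phlda3 by 1.08 and Btg2 by 0.90, whereas Plk2 (0.21) and Eda2r (0.14) differed little, Trp53 by -0.14 and Trp53inp1 by -1.13. There is 1 library of each genotype in that pair and so no test. Erythroid transcripts summed to 1.82 to 3.44 RPM in WT and to 1652, 2522, 4.66 and 99.3 RPM in KO1 to KO4, with 8 of 8 tested markers positive. Leaving out KO1 and KO2, the libraries with the highest erythroid sums, gave 9 of 10 members positive and a median of 0.77, with Ccng1 at 1.80, Eda2r at 1.34 and Plk2 at 1.15. These are descriptions, since the members were chosen on this contrast, and the part of erythroid RNA in their values was not tested. Immediate early genes, transcripts induced within minutes of a stimulus or of handling, summed to 328 to 396 RPM in WT and to 413 to 530 RPM in KO without overlap, and 11 of their 13 tested members were positive with a median of 0.46. Of the epiblast and primitive streak markers 0 of 5 tested were positive (median -1.43), and their sums overlapped, at 168 to 464 RPM in WT and 114 to 261 in KO. Nanog (158 to 184 in WT and 32.5 to 93.8 in KO) and Fgf5 (17.6 to 37.1 and 1.16 to 12.03) were lower in KO without overlap. Of the neural tube genes 7 of 10 were positive (median 0.13), and Fgf15 (381 to 775 in WT and 820 to 1953 in KO) and Olig3 (1.35 to 19.66 and 19.8 to 46.2) were higher without overlap. The part of these markers in the members' values was not tested. Plk2 and Btg2 are themselves induced as immediate early genes, and the part of that response in their values was not tested. The link of level to transcript length ran over the same range in both genotypes at this stage, with a Spearman coefficient across genes from -0.46 to 0.52 in WT and from -0.43 to 0.50 in KO. With the length trend removed the median of the members was 0.76.

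**Figure D2:**
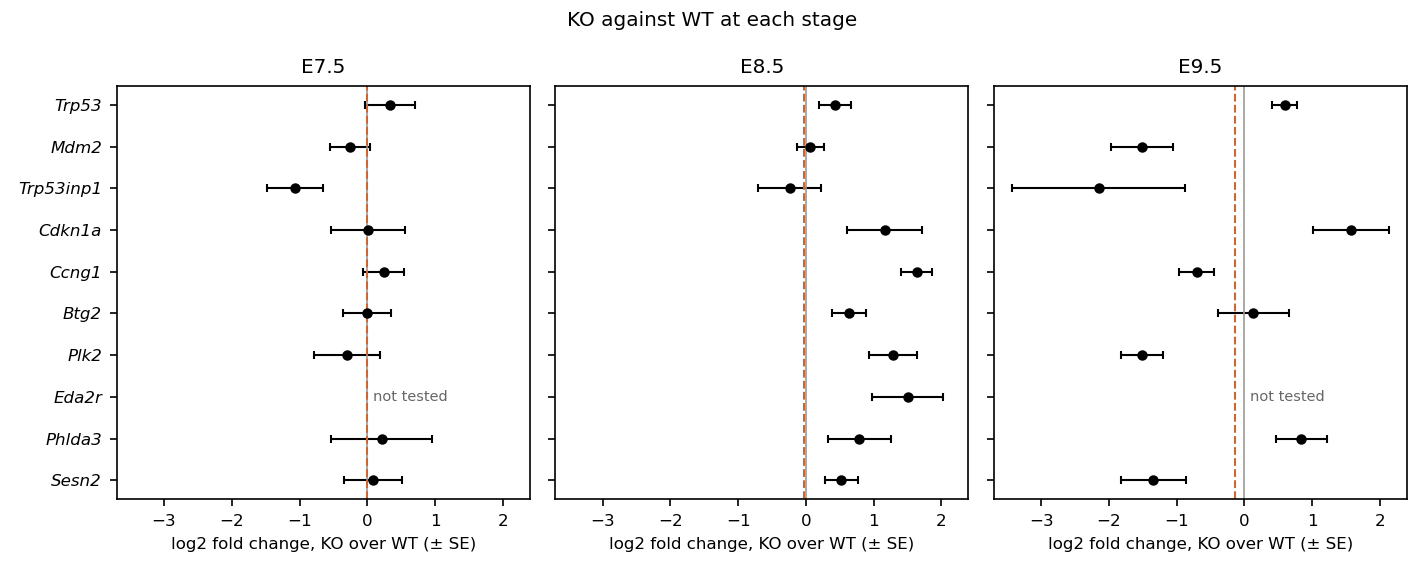
Log2 fold change of KO over WT (points) with its standard error (bars) for each member by stage, the dashed line marking the median of all genes tested at that stage. At E8.5 all points but Trp53inp1 lie to the right of 0, at E7.5 all but Trp53inp1 lie between -0.30 and 0.33, and at E9.5 Mdm2, Plk2, Sesn2, Ccng1 and Trp53inp1 lie to the left.

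At E7.5, before the crest forms, no tested member differed beyond the threshold, in a design of 2 libraries a genotype with wide errors. None of the 9 tested was called (0%, as for the 12492 genes tested, where limma called 0% in either direction with 385 at an unadjusted p below 0.05, edgeR 0 and DESeq2 31). On the mean log2 level 5 were positive and 4 negative, with a median log2 fold change of 0.01 against -0.01 over all genes, and adjusted p by limma was 0.99996 for each. The direction of several rested on the scale, since edgeR and DESeq2 gave 3 of 9 positive with medians of -0.12 and -0.13. 1 member, Trp53inp1, passed an unadjusted p below 0.05, and neither edgeR nor DESeq2 called a member.

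Trp53inp1 was at 108 and 112 in WT against 66.8 and 40.1 in KO, the only tested member whose groups did not overlap, against 12.7% of genes without overlap and lower in KO and 16.1% higher. Its log2 fold change was -1.07 (SE 0.41, unadjusted p = 0.0326, limma). Eda2r was at 7.73 and 8.79 in WT against 4.17 and 0.801 in KO, from 18 WT and 4 KO reads, and its mean was too low to test. Trp53 was at 994 and 511 in WT against 881 and 918 in KO, a log2 fold change of 0.33 (SE 0.36). The WT libraries of Trp53 thus enclosed both KO libraries. Mdm2 was at 691 and 513 in WT and 475 and 525 in KO, a log2 fold change of -0.25 (SE 0.29). Ccng1 was at 384 and 550.3 in WT and 564 and 524 in KO, a log2 fold change of 0.24 (SE 0.30).

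The WT libraries were themselves far apart in several targets. Phlda3 was at 234 and 41.5 in WT and 89.1 and 147 in KO, Cdkn1a at 149 and 54.0 against 68.2 and 120.2, and Sesn2 at 292 and 127 against 199 and 212. In each of these, WT1 was the highest and WT2 the lowest of the 4 libraries, so the log2 fold changes of 0.21 (SE 0.74), 0.01 (SE 0.55) and 0.09 (SE 0.43) carry wide errors. Btg2 was at 123 and 134 in WT and 107 and 153 in KO, and Plk2 at 52.7 and 32.7 against 32.0 and 35.3. WT2 also held most of the uterine gland transcripts, which summed to 140 RPM in WT1, 2327 in WT2, 15.9 in KO1 and 18.04 in KO2. Trophoblast transcripts summed to 1677 and 872 RPM in WT and to 4162 and 7222 in KO. The part of these other cell types in the values was not tested. In bulk samples fewer cells of a type and less RNA per cell cannot be told apart.

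At E9.5, in the Sox10 cells, Plk2 and Mdm2 fell in KO and Trp53 rose on the deposited scale. Trp53 turned negative with RPM scaling (-0.30), quantile normalisation (-0.19) and a length trend removed (-0.74). The medians of all genes on those scales were -1.01, -0.10 and -0.56. The 3 called of 9 tested members (33.3%) compare with 47.5% of the 12000 genes tested at this stage (24.5% higher and 23% lower), and the difference between these shares was not tested. The median log2 fold change of the members was -0.70 against -0.14 over all genes, with 4 positive and 5 negative. Without overlap, 3 were higher and 5 lower, against 38.6% and 41.7% of all genes. DESeq2 called 3 members and 5865 of the 12000 genes, and edgeR 2 members and 5475 genes. The calls also moved with 1 library left out, which leaves 1 library in a group.

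Plk2 was at 412 and 408 in WT against 178 and 116 in KO, a log2 fold change of -1.51 (SE 0.31, adjusted p = 0.0142, limma). Mdm2 was at 504 and 599.5 in WT against 301 and 122 in KO, a log2 fold change of -1.51 (SE 0.46, adjusted p = 0.0436, limma). The KO libraries of Mdm2 were far apart, with KO2 lowest, and its value moved to -2.16 without KO1 and to -0.87 without KO2. The call was lost in edgeR. Trp53 was at 1891 and 1882 in WT against 2477 and 3273 in KO, a log2 fold change of 0.59 (SE 0.19, adjusted p = 0.0470, limma). Its direction depended on the scaling, as given below, and its value moved to 0.79 without KO1 and to 0.39 without KO2. In the authors' deposited table Plk2 was at -1.47 (adjusted p = 0.00158), Mdm2 at -1.38 (adjusted p = 0.0141) and Trp53 at 0.61 (adjusted p = 0.0269).

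Cdkn1a was at 23.3 and 26.7 in WT against 55.9 and 104 in KO, a log2 fold change of 1.57 (SE 0.56, adjusted p = 0.0657, limma). Both KO libraries lay above both WT libraries, but the difference missed the threshold, and 114 reads stand behind the KO values. Ccng1 was at 284 and 323 in WT against 176 and 196 in KO, a log2 fold change of -0.70 (SE 0.26, adjusted p = 0.0735, limma). Sesn2 was at 201 and 194 in WT against 51.7 and 116 in KO, a log2 fold change of -1.34 (SE 0.47, adjusted p = 0.0657, limma). The KO libraries of Ccng1 and Sesn2 thus all lay below WT, without passing the threshold. This was the opposite of their order at E8.5, the contrast on which the members were chosen. Eda2r was at 22.3 and 16.7 in WT and at 0 in both KO libraries, and its mean was too low to test. With 55 WT reads (2.48 RPM) and 0 KO reads, its level was at least 17.3-fold lower in KO on the RPM scale. The bound takes 3 reads over the KO group, or 0.143 RPM. The median log2 fold change of all genes on that scale was itself -1.01. Eda2r, with a transcript of 4752 bases, was not in the fit with the length trend removed. In the authors' deposited table its log2 fold change was -6.30 (adjusted p = 0.0327).

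Phlda3 was at 100.2 and 80.2 in WT against 196 and 133 in KO, a log2 fold change of 0.84 (SE 0.38, adjusted p = 0.121, limma). Btg2 was at 92.1 and 71.2 in WT against 59.1 and 133 in KO, where the KO libraries enclosed the WT libraries, with a log2 fold change of 0.13 (SE 0.53, adjusted p = 0.850, limma). Trp53inp1 was at 44.6 and 35.8 in WT against 30.6 and 1.70 in KO, from 29 reads in KO1 and 1 read in KO2. KO2 was the far library, and the log2 fold change of -2.15 had the widest error of the 9 (SE 1.28, adjusted p = 0.211, limma). It moved to -3.92 without KO1, which leaves the 1 read of KO2, and to -0.37 without KO2.

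The genotypes at E9.5 also differed in how level relates to transcript length, which bears on these directions. Across genes, the Spearman coefficient of a library's level with the longest coding transcript was 0.63 and 0.69 in WT and -0.50 and -0.61 in KO, and that of the log2 fold change with length was -0.68, against 0.04 at E7.5 and 0.08 at E8.5. Among the members, Phlda3 (1435 bases), Trp53 (1867) and Cdkn1a (2080) have the shortest transcripts and were the 3 whose KO libraries lay above WT, while Btg2 (2743), Plk2 (2800), Mdm2 (3145), Sesn2 (3475), Ccng1 (3512) and Trp53inp1 (5404) ranged from 0.13 to -2.15. With a smooth trend over length removed from each library, the median of all genes was -0.56, and Trp53 turned to -0.74, Phlda3 to -1.04 and Btg2 to -0.20. Relative to that median Cdkn1a stood at 1.07, Btg2 at 0.36, Ccng1 at 0.15, Trp53 at -0.18, Phlda3 at -0.48, Sesn2 at -0.52, Trp53inp1 at -0.56, Mdm2 at -0.94 and Plk2 at -1.23. With the trend removed Plk2 and Trp53 were called lower and Mdm2 was not called. RPM scaling moved the median of all genes to -1.01 and Trp53 to -0.30, which is 0.71 above that median. Under quantile normalisation Trp53 was at -0.19. Over all genes, 2944 were called higher and 2756 lower on the deposited scale, 924 and 2666 with the length trend removed, and 1622 and 5081 on the RPM scale. Both KO libraries carry code 171 and both WT libraries code 209, so code and genotype cannot be told apart.

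**Figure D3:**
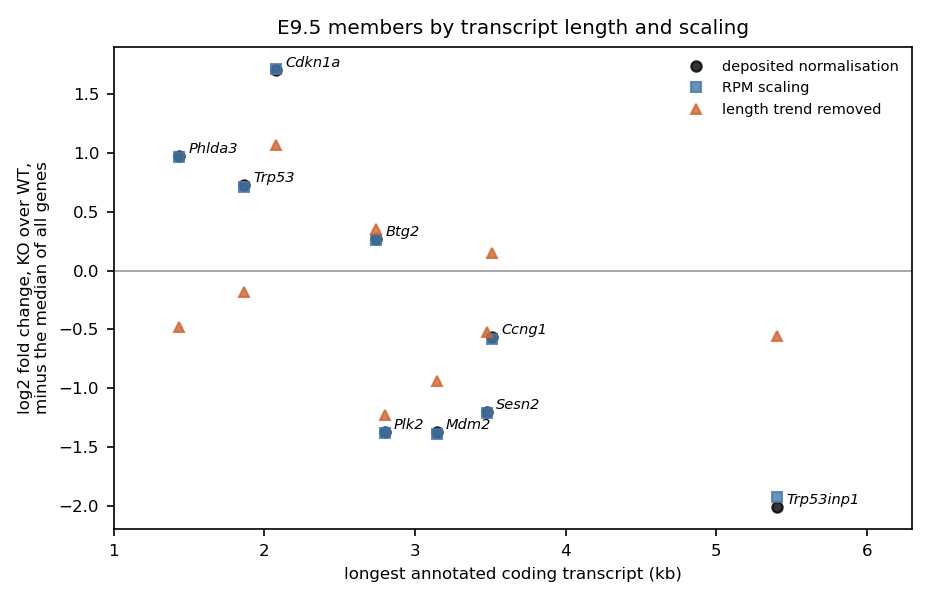
Log2 fold change of KO over WT at E9.5 minus the median of all genes (vertical axis) against the longest annotated coding transcript in kilobases, for the 9 tested members under the deposited normalisation (circles), RPM scaling (squares) and with the length trend removed (triangles). On the first and second scales the 3 shortest members lie above 0 and the longer ones from Plk2 onward below it, and with the trend removed Cdkn1a (1.07), Btg2 (0.36) and Ccng1 (0.15) lie above 0.

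Transcripts that mark other cells also differed between the E9.5 libraries. Erythroid transcripts summed to 1.51 and 3.03 RPM in WT and to 21023 and 20.6 RPM in KO1 and KO2, with 9 of 9 tested markers positive. The neural crest list summed to 784 and 725 RPM in WT and to 168 and 285 RPM in KO. On the deposited scale 5 of its 12 tested genes were called lower and none higher, against 23% and 24.5% of all genes. The difference between these shares was not tested. Sox10 itself was at 722 and 639 in WT and 511 and 1165 in KO. Immediate early genes summed to 683 and 515 RPM in WT and to 265 and 224 RPM in KO, on a scale where the median of all genes was itself -1.01. On the deposited scale 5 of their 13 tested genes were positive with a median of -0.27 against -0.14 over all genes. Of these 13 genes 4 lay higher and 5 lower without overlap, against 38.6% and 41.7% of all genes. The crest list had a median of -0.51. The part of these lists in the members' values was not tested.

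**Figure D4:**
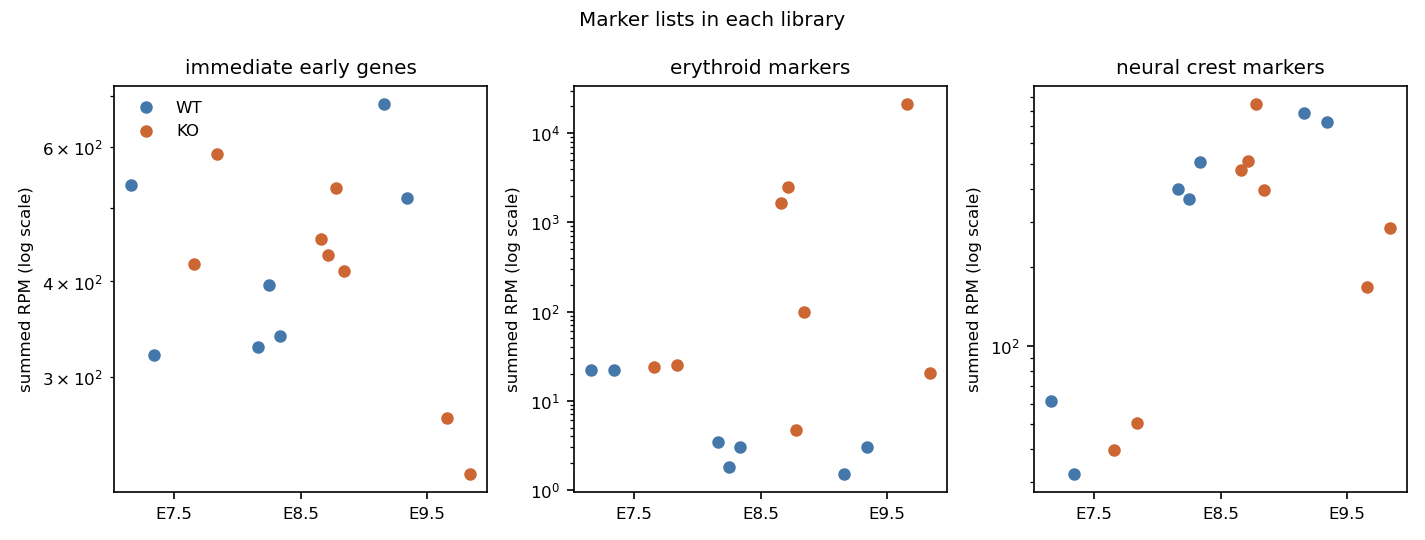
Summed RPM (log axis) of immediate early genes, erythroid markers and neural crest markers in each of the 15 libraries, WT in blue and KO in orange, by stage. On the RPM scale immediate early genes are higher in KO at E8.5 (413 to 530 against 328 to 396) and lower at E9.5, and erythroid sums reach 2522 in KO at E8.5 and 21023 at E9.5.

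The wider p53 pathway was read from lists of other targets, upstream regulators and paralogs of the members. Of 37 other p53 targets in the tables, 34 were tested at E7.5, where 13 were positive with a median log2 fold change of -0.17 and none was called by limma, edgeR or DESeq2, with 0 at an unadjusted p below 0.05 in limma. At E8.5, 33 were tested and 19 were positive, with a median of 0.07 against -0.03 over all genes and 0.71 over the members, which were chosen there. None of them was called by limma, edgeR or DESeq2, with 2 at an unadjusted p below 0.05 in limma, the mitotic regulator Psrc1 (log2 fold change 0.49, SE 0.20, adjusted p = 0.815) and the adenylate kinase Ak1 (0.80, SE 0.33, adjusted p = 0.807). Their groups were the only ones of the 33 that did not overlap. Among the death genes, 6 of 11 were positive at E8.5 (median 0.07), with Ei24 at 0.46 and Pidd1 at 0.43. Among arrest and repair genes 9 of 13 were positive (median 0.10), with Rprm at 0.60, and among metabolic and other targets 4 of 9 (median -0.03), with Ddit4 at 0.71. The genes named were drawn from those of smallest unadjusted p, and all were positive, unlike the rest of each list. Bax was at 4640, 4298 and 2969 in WT1_5s, WT2 and WT3 against 2671, 2819, 1937 and 4704 in KO1 to KO4, and its groups overlapped.

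At E9.5, 32 other targets were tested, 13 were positive with a median of -0.23, and 3 rose and 3 fell on the deposited scale (18.8%, against 47.5% of all genes). With RPM scaling 2 were called higher and 11 lower, against 1622 and 5081 of the 12000 genes. With the length trend removed 1 was called higher and 2 lower, against 924 and 2666 of 11180 genes. Bax, which opens the mitochondrial membrane in apoptosis, rose by 2.52 on the log2 scale (SE 0.15, adjusted p = 0.000582, limma), and Rps27l, a ribosomal protein paralog, by 2.86 (SE 0.12, adjusted p = 0.000505, limma). With the length trend removed the median of all genes was -0.56. There Bax was at 0.15 and no longer called, and Rps27l was at -0.66, near that median, and called lower. Psrc1 rose by 0.65 (SE 0.21, adjusted p = 0.0493, limma) and was at -0.90 with the trend removed. Sesn1, the sestrin paralog of Sesn2, fell by 2.88 on the log2 scale (SE 0.53, adjusted p = 0.00993, limma) and was still called, at -2.40, with the trend removed. The apoptosome scaffold Apaf1 fell by 5.39 on the log2 scale (SE 1.40, adjusted p = 0.0279, limma) from a WT mean of 178 ± 70.0 to 7.92 ± 11.2 (SD, n = 2 each), and the ubiquitin ligase subunit Fbxw7 fell by 1.58 on the log2 scale (SE 0.44, adjusted p = 0.0339, limma). Neither was called with the trend removed, at -4.24 and -0.79.

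Of the upstream regulators none was called by limma, edgeR or DESeq2 at E7.5 (6 of 15 positive, 2 at an unadjusted p below 0.05 in limma) or at E8.5 (4 of 16 positive, median -0.17, 2 at an unadjusted p below 0.05). The checkpoint kinase Chek1, 1 of the 4 positive, was at 384 ± 35.8 (SD, n = 3) in WT and 536 ± 94.4 (SD, n = 4) in KO at E8.5. Its log2 fold change was 0.47 (SE 0.21, adjusted p = 0.815, limma). Atm was negative, at -0.37 (SE 0.23, adjusted p = 0.857, limma). At E9.5, on the deposited scale, 3 regulators rose and 7 fell of 15 tested (66.7%, against 47.5% of all genes). With RPM scaling 2 were called higher and 11 lower, against 1622 and 5081 of the 12000 genes. With the length trend removed 0 were called higher and 5 lower, against 924 and 2666 of 11180 genes. There the median of the regulators relative to all genes moved from -1.85 to -0.43. The differences between these shares were not tested. Rpl11 and Rpl5, ribosomal proteins that bind Mdm2 when ribosome assembly fails, rose by 2.56 and 1.36 on the log2 scale (adjusted p = 0.000509 and 0.00305, limma), and the kinase Hipk2, which phosphorylates p53, fell by 2.57 on the log2 scale (adjusted p = 0.00216, limma). With the length trend removed Rpl11 was at -0.32, Rpl5 at 0.26 and Hipk2 at -1.41, against a median of all genes of -0.56. Only Hipk2 of these was still called.

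Among paralogs of the members, 5 of 12 were positive at E8.5 with a median of -0.03. Phlda1, the paralog of Phlda3, stood in KO at 584 ± 159 (SD, n = 4) against 1641 ± 132 in WT (SD, n = 3), a log2 fold change of -1.53 (SE 0.24, adjusted p = 0.256, limma). It was called by DESeq2 and not by limma or edgeR. Btg3, the paralog of Btg2, was at -0.57 (SE 0.22) at E8.5 and rose by 1.08 (SE 0.28, adjusted p = 0.0289, limma) at E9.5. At E9.5 7 of 12 tested paralogs were positive, with a median of 0.50 against -0.14 over all genes. On the deposited scale 1 was called higher and 3 lower (33.3%, against 47.5% of all genes). Without overlap 6 lay higher and 3 lower, against 38.6% and 41.7% of all genes, and these differences were not tested. The kinase Plk4, a paralog of Plk2 that acts in centriole duplication, fell by 1.57 on the log2 scale at E9.5 (SE 0.23, adjusted p = 0.00540, limma), and Trp53inp2 fell by 2.76 on the log2 scale (SE 0.68, adjusted p = 0.0245, limma). With the length trend removed, where the median of all genes was -0.56, Btg3 (0.98) and Plk4 (-1.31) were still called and Trp53inp2 (-2.19) was not. At E7.5, 10 of 12 paralogs were positive with a median of 0.26 and none was called by limma, edgeR or DESeq2, with 1 (Plk3, 0.94, SE 0.29) at an unadjusted p below 0.05 in limma.

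**Figure D5:**
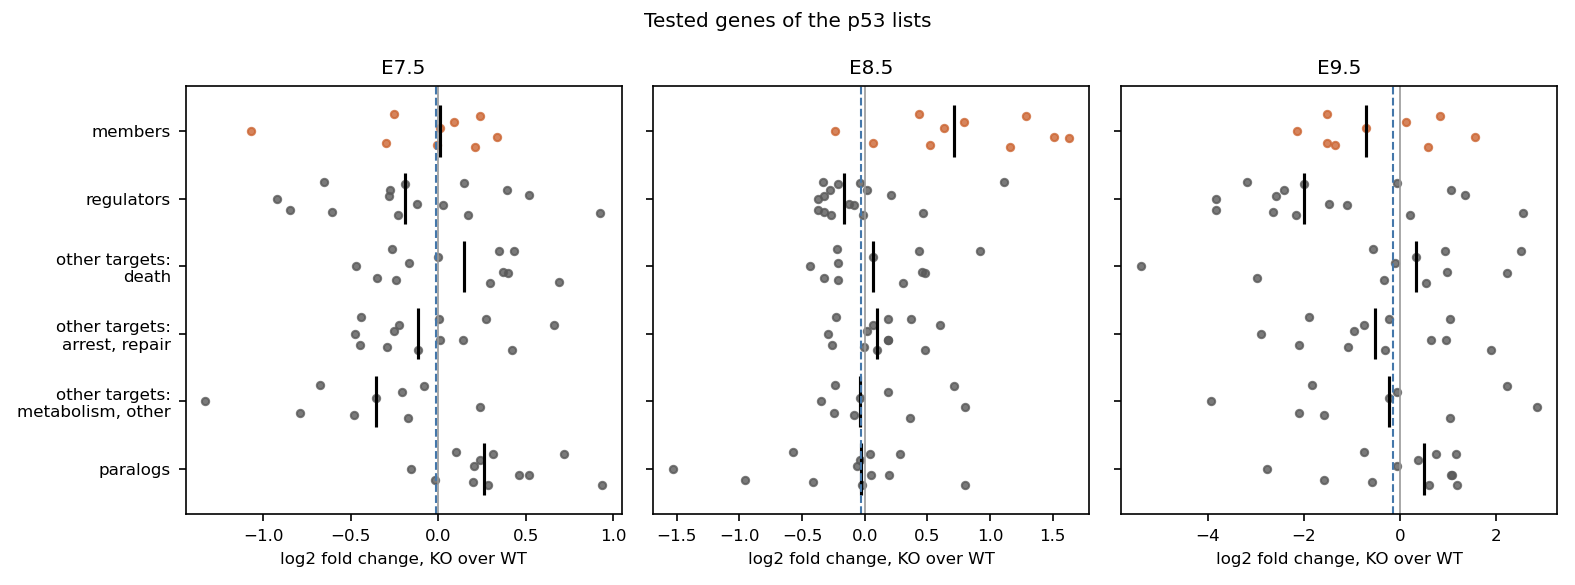
Log2 fold change of KO over WT for each tested gene (points) of the members, the regulators, 3 lists of other p53 targets and the paralogs, with the median of each list (black bar) and of all genes (dashed line), by stage and on a separate scale for each stage. At E8.5 the median of the members (0.71) lies to the right of the other lists, and at E9.5 the regulators have the lowest median (-1.99) on the deposited scale, but not with the length trend removed (-0.99, against -1.02 for arrest and repair genes and -1.04 for the members).

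Genes whose levels tracked those of Ccng1 and Cdkn1a were named as a description over the 15 libraries, by Pearson r of log2(RPM + 1) among the 8156 genes whose mean reached 10 RPM. Closest to Ccng1 were Rbbp9 (r = 0.936), Tmx2 (r = 0.930) and Slc19a2 (r = 0.926). Closest to Cdkn1a were Crip2 (r = 0.875), Ccdc115 (r = 0.861) and Rgs2 (r = 0.849). The libraries share stage, gate, depth and the trend with transcript length given above, and no member was among the genes ranked.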

How the data were processed

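Total RNA (miRNeasy columns with Trizol-LS) was converted to cDNA with SMART-Seq v4 and made into libraries with Nextera XT, per the labels' protocols, a chemistry that does not mark strand. Per the submitters' processing notes the tools were FastQC 0.11.5 and STAR 2.7.0f with mm10. For the counter, annotation and normaliser: not given in the sources used here. A table of normalised signal per stage was deposited, in which gene counts are divided by 1 factor per library. Whole reads were recovered in 100% of values (within 0.01 of a read). The deposited tables of selected genes hold the authors' log2 fold change and its error, a test score, and p-values, per the file headers. They were used only where named, and the E7.5 table of higher genes was not used, since its means did not match the E7.5 signal.

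Groups came from the sample titles. Each stage was fitted alone in R 4.3.3 with limma 3.58.1, its variance trended, on log2(value + 1), mean value at least 10, two-sided, Benjamini-Hochberg at 0.05, no covariate. Alternatives were pseudocounts 8 and 0.1, a minimum mean of 100 or none, TMM and quantile scaling, edgeR 4.0.16 (quasi-likelihood) and DESeq2 1.42.0 on recovered reads, a replicate block, each library left out, 1 code number only, E8.5 without KO1 and KO2, and a loess trend (span 0.3) over transcript length removed. RPM scaling was added after seeing the data. Scripts were tested on simulated data. Python 3.11.15, numpy 2.4.6, pandas 2.3.3 and matplotlib 3.10.9 were used. All 10 members were named, and from each of 13 other lists up to 3 genes of smallest unadjusted p. The members and lists were chosen with earlier results of these data known.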

Additional observations from a re-analysis of the deposited data

Results flagged for a closer look

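Over the 10 members, 30 pairs of stages were looked at. In 5 of them every KO library lay above every WT library at one stage and below every WT library at the other. All 5 include E8.5, the contrast on which the members were chosen, so nothing is read from this count. Of all genes tested, 41.7% lay lower in KO without overlap at E9.5 and 12.7% at E7.5. The share of all genes with such a change of order was not counted. The differences were not tested, since each stage was normalised apart and taken from other cells. For Ccng1 the log2 fold change at E9.5 minus that at E8.5 was -2.34, for Plk2 it was -2.8, for Sesn2 -1.87 and for Eda2r -5.85, the last with 0 reads in both E9.5 KO libraries. Eda2r also differed between E7.5 and E8.5, by 3.11, on 18 WT and 4 KO reads at E7.5. The E9.5 values move with the length trend given above, and Ccng1 at E9.5 stood 0.15 above the median of all genes once it was removed. Among the 10 members in the group of 4 E8.5 KO libraries, no library stood apart by Dixon's test, which chance passes in about 1 of 20 groups.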

How the results depend on the processing

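Genes called rose from 0 at E7.5 to 31 in DESeq2, 17 with code 239 only and 47 with the replicate block, and ranged from 12 to 38 with 1 library left out. At E8.5 they went from 0 to 28 in DESeq2 and 664 with the block and ranged from 0 to 3 with 1 library left out, and members past the threshold went from 0 to 1 in DESeq2 and 1 with the block, which is no test of them, since they were chosen on this contrast. At E9.5 the 5700 genes became 3590 with the length trend removed and 1920 to 8689 with 1 library left out. The 3 members called there became 1 with a pseudocount of 0.1 and 0 to 8 with 1 library left out. The block gave 5722 genes and 3 members at E9.5, Sesn2 called and Trp53 not. Replicate numbers did not pair the libraries (correlation of deviations -0.12 at E7.5, 0.08, -0.02 and 0.55 at E8.5, -0.17 at E9.5), and 1 of the 3 numbered E8.5 KO libraries correlated best with its own number. The causes were not tested.

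Log2 fold changes that changed sign at E7.5 were Cdkn1a (-0.12 in edgeR, -0.13 in DESeq2, -0.39 with code 239 only), Phlda3 (-0.24 in both tools, -0.15 with code 239 only), Sesn2 (-0.043 in edgeR, -0.0496 in DESeq2) and Btg2 (0.0205 and 0.0032). With 1 library left out the E7.5 ranges were -0.14 to 0.81 (Trp53), -0.71 to 0.73 (Cdkn1a), -0.0179 to 0.50 (Ccng1), -0.63 to 0.0393 (Plk2), -0.26 to 0.25 (Btg2), -1.02 to 1.44 (Phlda3) and -0.51 to 0.69 (Sesn2). At E8.5 Trp53 was at -0.14 within code 169, and the ranges with 1 library left out were -0.0553 to 0.17 (Mdm2) and -0.78 to 0.0337 (Trp53inp1). At E9.5 Trp53 was at -0.30 (RPM scaling), -0.19 (quantile) and -0.74 (length trend removed), Btg2 at -0.75 and -0.20 and Phlda3 at -0.043 and -1.04 on the first and last of these, and Btg2 ranged from -0.45 to 0.70 with 1 library left out. RPM scaling moved the median of all genes at E8.5 from -0.03 to 0.12.

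Depth limits Eda2r most (18 WT and 4 KO reads at E7.5, 27 WT reads at E8.5), and also Trp53inp1 at E9.5 (30 KO reads, 1 of them in KO2).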
